A study of Mus musculus with 19 samples.

Results

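The genes described here are 34 markers of tumour macrophages, chosen by gene symbol and followed across 19 ErbB2-driven mouse mammary tumours. Each gene was read from a probe set that names 1 gene only, and where a gene had several such probe sets the one with the highest mean was kept. All 34 were measured, out of 14231 genes that passed an intensity filter. The tumours were end-burden mammary tumours of MMTV-NIC mice, flash frozen, and total RNA of each was hybridised to 1 Affymetrix array. Of these, 6 labelled double knockout tumours were floxed for both integrin genes (itgb1 fl/fl with itgb3 fl/fl), 4 Itgb1 knockout tumours were itgb1 fl/fl, 4 Itgb3 knockout tumours were itgb3 fl/fl, and 5 control tumours were NIC WT. Itgb1 and Itgb3 encode the beta 1 and beta 3 subunits of integrins, the receptors through which cells hold to the matrix. All 19 carried the NIC transgene, in which the mouse mammary tumour virus promoter drives an activated ErbB2 and the Cre recombinase from the same transcript. Cre therefore acts in the mammary epithelium, and macrophages that enter the tumour are host cells outside the targeted lineage. The labels give no ages and do not say whether tumours came from separate animals, and p-values therefore cover the scatter among these 19 tumours only.

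Tumour-associated macrophages descend from blood monocytes and from macrophages resident in the mammary gland, and depend on signals through the Csf1 receptor for their survival. They take up dying cells and matrix through scavenger, complement and Fc receptors, degrade them in lysosomes, and present or secrete signals that shape the tumour stroma. In mammary tumours of the mouse they are among the most common leukocytes. Several of the markers are also made by other cells: Apoe and Lgmn by epithelial and stromal cells, Maf by lymphocytes, Gpnmb by tumour cells, Arg1 and Fcer1g by other myeloid cells, and Cd68 at lower levels by many cell types. RNA of a whole tumour cannot tell fewer macrophages from less RNA of each gene per macrophage.

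Values are the deposited log2 intensities, so a difference of 1 is a doubling, and levels are compared between tumours for the same gene only. The arrays were alike in scale, with medians between 4.32 and 4.48. On all 19 arrays, 30 of the 34 markers lay above the intensity filter of 4.38. Cd163 was under it on 3, Chit1 and Gpnmb on 2 each, and Siglec1 on 1. The defining macrophage genes Adgre1, Csf1r, Cd68, C1qa, C1qb and C1qc were above it in each tumour. Itgb1 averaged 8.32 ± 0.48 in labelled double knockout, 8.70 ± 0.29 in Itgb1 knockout, 10.04 ± 0.20 in Itgb3 knockout and 10.16 ± 0.19 in control tumours (SD; n = 6, 4, 4 and 5). Itgb3 averaged 8.13 ± 0.39 in labelled double knockout, 8.24 ± 0.51 in Itgb1 knockout, 7.01 ± 0.48 in Itgb3 knockout and 8.12 ± 0.25 in control tumours. Itgb3 RNA was thus not lower in the tumours labelled double knockout than in control, and the label is kept here as a name only.

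The upstream sequences of Laptm5, Clec7a, Chit1 and C1qc are shown because they stand before 3 of the genes that rose in the comparison with Itgb3 knockout tumours and before the complement gene with the longer of 2 motif matches. Spi1, itself one of the 34 markers, encodes PU.1, a transcription factor of the myeloid lineage that binds purine-rich DNA with the core GAGGAA. Each line gives the 250 bases before the annotated start, from RefSeq on GRCm38.p6, written 5′ to 3′ on the gene's strand, with GAGGAA or its reverse complement TTCCTC in capitals.
Laptm5, chr4:130913066-130913315, plus strand: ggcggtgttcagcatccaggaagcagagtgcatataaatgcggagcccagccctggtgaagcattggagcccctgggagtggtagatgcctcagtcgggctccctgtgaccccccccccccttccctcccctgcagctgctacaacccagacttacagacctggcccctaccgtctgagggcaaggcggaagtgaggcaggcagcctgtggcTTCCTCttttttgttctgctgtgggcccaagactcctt
Clec7a, chr6:129472780-129473029, minus strand, the first of its listed windows: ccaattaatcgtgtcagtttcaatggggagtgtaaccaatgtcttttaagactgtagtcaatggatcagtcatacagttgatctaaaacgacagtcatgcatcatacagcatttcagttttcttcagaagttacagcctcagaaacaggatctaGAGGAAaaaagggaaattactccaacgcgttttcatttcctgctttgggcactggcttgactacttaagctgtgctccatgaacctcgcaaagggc
Chit1, chr1:134110992-134111241, plus strand: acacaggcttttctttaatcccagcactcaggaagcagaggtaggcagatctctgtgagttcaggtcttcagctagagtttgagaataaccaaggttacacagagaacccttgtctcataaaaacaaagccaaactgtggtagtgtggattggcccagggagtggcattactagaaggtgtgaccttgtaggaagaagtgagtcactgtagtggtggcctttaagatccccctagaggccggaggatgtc
C1qc, chr4:136892915-136893164, minus strand: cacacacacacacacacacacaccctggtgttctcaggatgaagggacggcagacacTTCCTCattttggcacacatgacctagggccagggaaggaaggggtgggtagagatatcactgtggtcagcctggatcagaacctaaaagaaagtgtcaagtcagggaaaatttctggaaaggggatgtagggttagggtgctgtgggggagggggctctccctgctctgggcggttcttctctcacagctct
The match in Laptm5 began 38 bases before the start, that in Clec7a 96 bases and that in C1qc 193 bases before it, whereas Chit1 held none. Windows of 300 bases, which add the 50 bases after the start, were on file for 24 of the 34 markers, and 14 of them (58.3%) held GAGGAA on either strand, against 31.3% of 27025 genes. The longer GAGGAAGT, which contains the shorter motif, was found on either strand in C1qc and Ctss, 2 of the 24 (8.33%), against 3.69% of the genes. In Ctss, 1 match of the short motif began 164 bases before the start and another at the start itself. A match is a string of letters and was not tested for binding. Adgre1, Arg1, C1qa, Cd86, Csf1r, Maf, Msr1, Siglec1, Spi1 and Tyrobp are named only.

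In single tumours the markers were highest in 4 of the 6 labelled double knockout tumours and low in the 4 Itgb3 knockout tumours. Each marker was set against its own mean over the 19 tumours, and the median of the 34 deviations was taken in each tumour. That median was 0.65, 0.52, 0.37, -0.37, 0.38 and -0.13 in labelled double knockout tumours 1 to 6. It was 0.15, 0.14, -0.10 and -0.05 in the Itgb1 knockout tumours, -0.27, -0.22, -0.14 and -0.43 in the Itgb3 knockout tumours, and -0.49, -0.08, -0.00, 0.13 and -0.09 in the control tumours. The 4 highest of all 19 tumours were labelled double knockout tumours 1, 2, 5 and 3, in which 33, 32, 29 and 31 of the 34 markers were above their own mean. Tumour 4 of the same group had 5 such markers, and tumour 6 had 10, so the group spanned nearly the whole range of the study. All 4 Itgb3 knockout tumours lay below all 4 Itgb1 knockout tumours, and the control tumours overlapped both. Control tumour 1 was the lowest of the 19, with 4 markers above their mean.

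**Figure D1:**
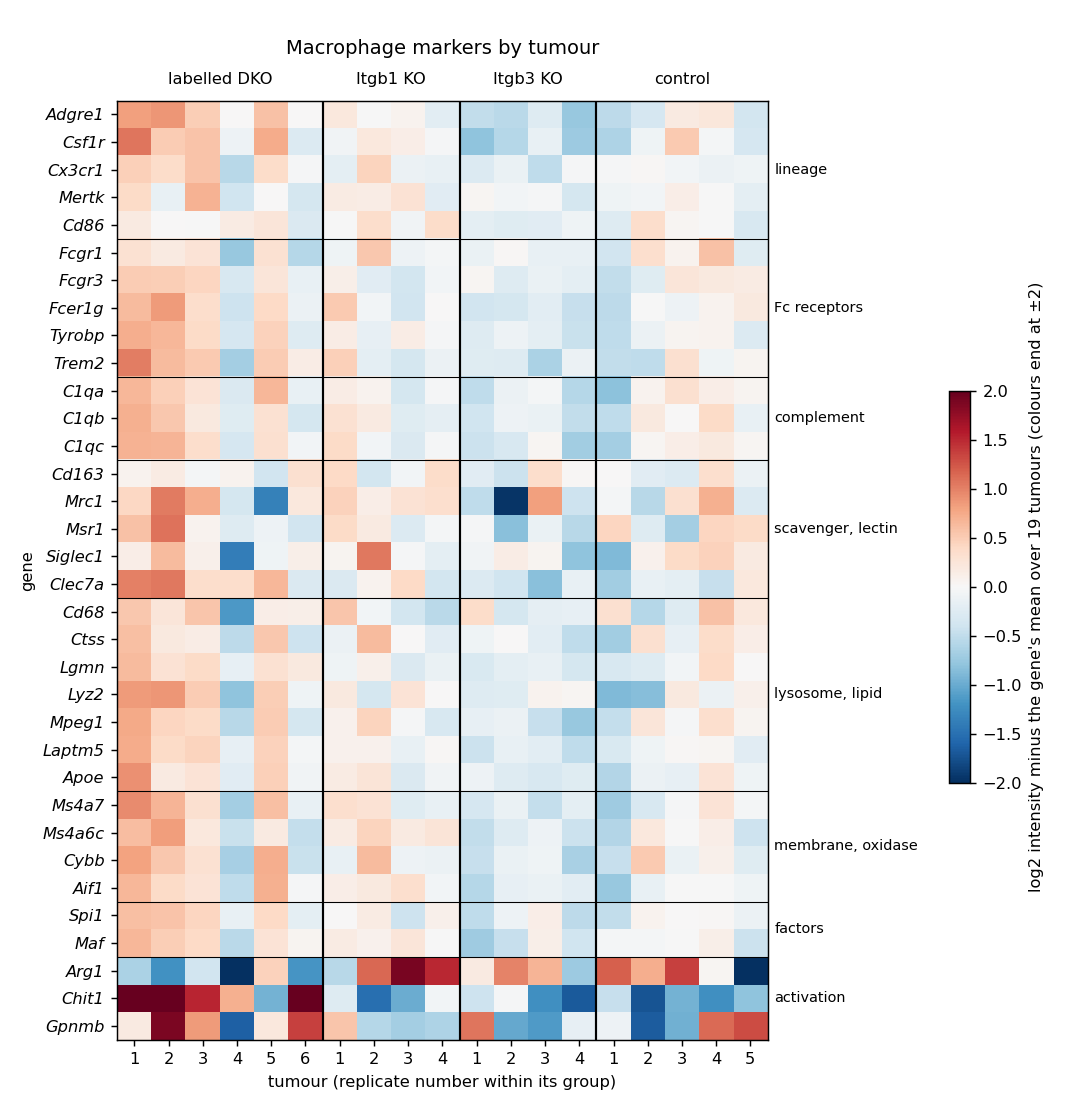
Log2 intensity of each of the 34 markers minus that gene's mean over 19 tumours (colour, ending at ±2), with genes in rows by role and tumours in columns by group. Labelled double knockout tumours 1, 2, 3 and 5 are mostly red, tumour 4 is mostly blue with 5 markers above their mean, the Itgb3 knockout columns are mostly blue, and Arg1, Chit1 and Gpnmb do not follow the rest.

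Tests were made for each gene with limma over all 14231 genes, in 1 fit of the 4 groups, and a marker was called at a Benjamini-Hochberg adjusted p under 0.05. Labelled double knockout against control called 0 of the 34 markers, where 0.386% of all genes were called and 0.295% were called as higher. The smallest adjusted p was 0.0504, for Chit1. At an unadjusted p under 0.05, 11 of the 34 markers were higher and 0 lower, against 11.2% of all genes higher and 5.68% lower. The median difference of the markers was 0.31, with 31 of 34 above 0, against a median of 0.03 over all genes, of which 55.9% were above 0. It was 0.22 without control tumour 1 and 0.13 without both control tumour 1 and labelled double knockout tumour 1, the lowest and the highest tumours. No marker had all 6 labelled double knockout tumours above all 5 control tumours, which 1.19% of the genes had.

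Both single knockouts called 0 markers against the same control tumours, which the 3 comparisons share. For Itgb1 knockout against control, 0.00703% of all genes were called, and 0 markers passed an unadjusted p under 0.05, against 4.86% of all genes. The markers' median difference there was 0.13, with 29 of 34 above 0, against 0.02 over all genes, of which 55.9% were above 0. It was 0.05 without control tumour 1 and 0.08 with arrays weighted by their quality. For Itgb3 knockout against control, 0% of all genes were called, and again 0 markers passed an unadjusted p under 0.05, against 6.14% of the genes. The median difference was -0.18, with 3 of 34 above 0, against -0.01 over all genes, of which 47.6% were above 0. The median was -0.12 without control tumour 4 and -0.27 without control tumour 1, and the count above 0 was 6 without control tumour 4 and 5 without Itgb3 knockout tumour 1 or 4.

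The only comparison that called markers was labelled double knockout against Itgb3 knockout, in which Adgre1, Csf1r, Laptm5, Clec7a and Chit1 rose. These are 5 of the 34 markers, or 14.7%, beside 2.38% of all genes called as higher and 2.87% in either direction. At an unadjusted p under 0.05, 20 of 34 markers were higher and 0 lower, against 14% of all genes higher and 7.14% lower. The markers' median difference was 0.53, with 33 of 34 above 0, against 0.03 over all genes, of which 54.7% were above 0. By role, the median difference was 0.43 for the 5 lineage receptors, 0.52 for the 5 Fc receptors and adaptors, 0.58 for the 3 complement chains and 0.55 for the 5 scavenger and lectin receptors. It was 0.49 for the 7 lysosome, lipid and pore genes, 0.53 for the 4 membrane and oxidase genes and 0.55 for the 2 transcription factors. The 3 activation genes had a median of 0.79 and ran between -1.29 for Arg1 and 2.72 for Chit1. These calls rest on few tumours: with each tumour left out in turn the count of called markers ran between 0 and 11, being 0 without Itgb3 knockout tumour 1 or 4 and 11 without labelled double knockout tumour 4. It was 1 (Adgre1) without labelled double knockout tumour 1, 2 or 3 or Itgb3 knockout tumour 2, 2 without Itgb3 knockout tumour 3 and 3 without labelled double knockout tumour 5. These counts stand without the share of all genes called in each setting, so they do not show a change particular to the markers. With each array centred on its own median 1 marker, Adgre1, was called, and the markers' median difference was 0.42 where that of all genes was -0.08.

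The remaining pairs of groups called 0 markers. Labelled double knockout against Itgb1 knockout called 0.0211% of all genes, and at an unadjusted p under 0.05 Adgre1, Clec7a, Lgmn and Chit1 were higher and Arg1 lower, 4 and 1 of 34 markers beside 7.27% and 4.99% of the genes. The markers' median difference was 0.21, with 26 above 0, against 0.01 over all genes, of which 51.1% were above 0. It was 0.10 without labelled double knockout tumour 1, 0.36 without tumour 4 and 0.35 with array weights. Itgb3 knockout against Itgb1 knockout called 0% of all genes. There the markers' median difference was -0.32, with 2 of 34 above 0, against -0.03 over all genes, of which 42.8% were above 0. The count above 0 was 4 without Itgb1 knockout tumour 1, 1 without Itgb1 knockout tumour 2, and 0 without Itgb1 knockout tumour 3 or Itgb3 knockout tumour 1. At an unadjusted p under 0.05, 5 markers (Adgre1, Csf1r, Ms4a6c, Cd86 and Maf) were lower and 0 higher, where 2.82% of the genes were lower and 1.72% higher. In all, 6 markers, namely Adgre1, Csf1r, Aif1, Laptm5, Ms4a6c and Cd86, had all 4 Itgb3 knockout tumours below all 4 Itgb1 knockout tumours, which is 17.6% of the markers beside 2.47% of all genes.

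**Figure D2:**
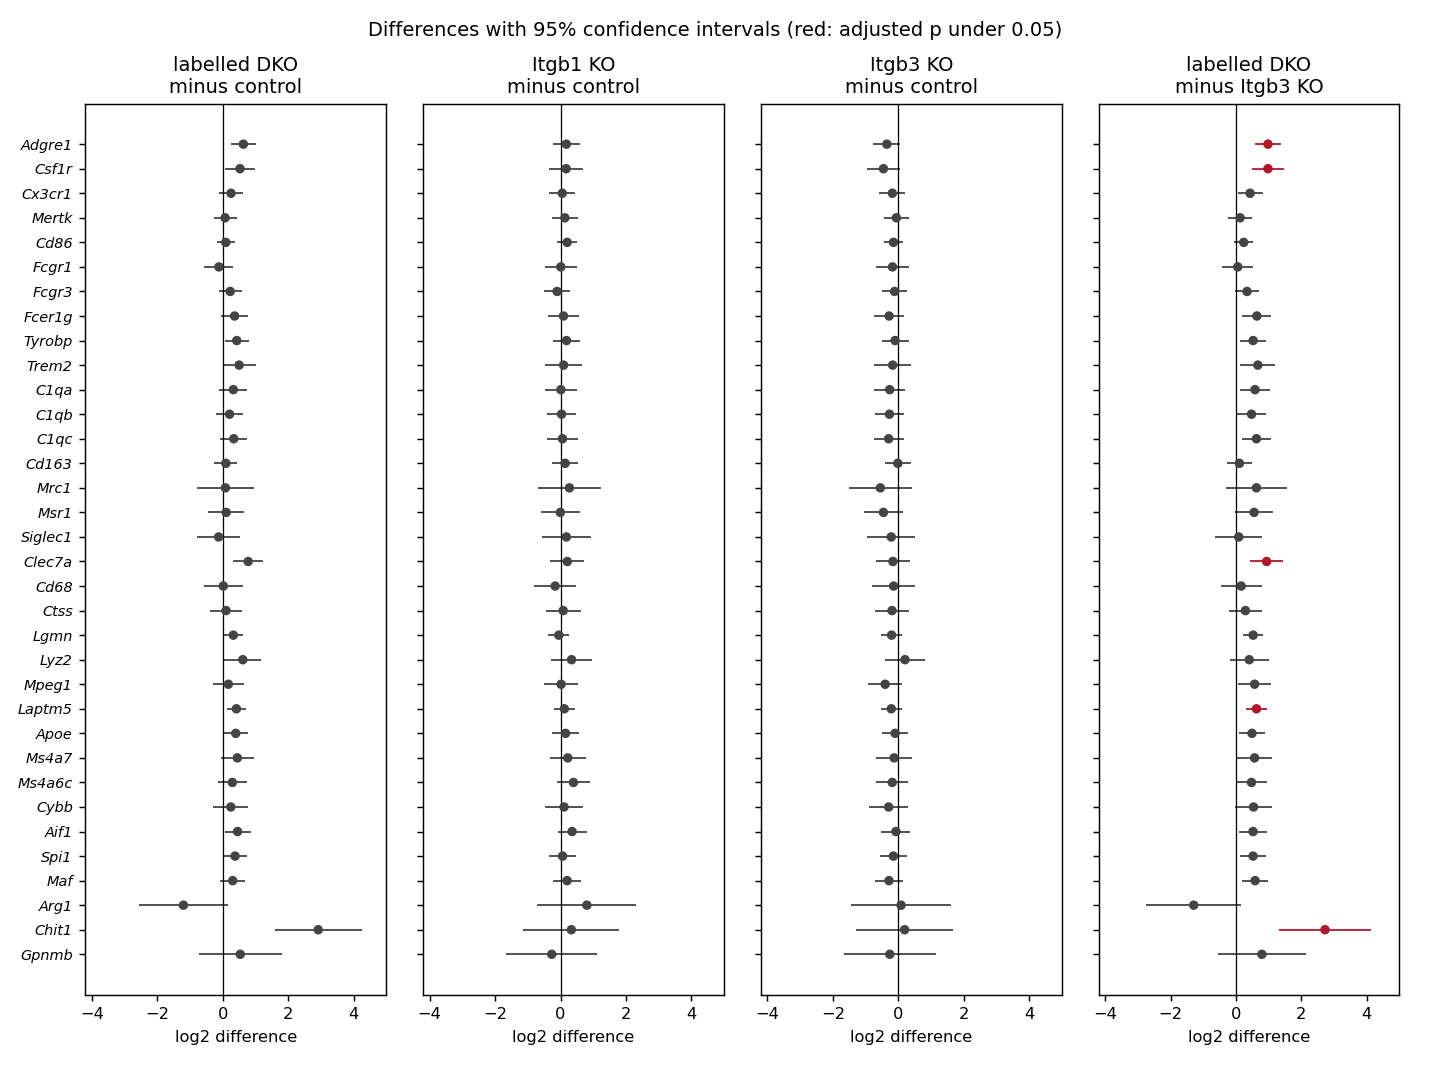
Log2 difference of each marker with its 95% confidence interval from limma, in 4 comparisons, with red for an adjusted p under 0.05. The points of the last panel, labelled double knockout minus Itgb3 knockout, lie above 0 for 33 of 34 markers and 5 are red. Of all genes, 54.7% were above 0 there and 2.38% were called as higher. No marker is red in the 3 comparisons with control.

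Among the receptors that define the lineage, Adgre1 and Csf1r differed most. Adgre1 encodes an adhesion G protein-coupled receptor, the surface protein most used to mark mouse macrophages. In labelled double knockout tumours its log2 level was 6.71 at the lowest, 7.25 at the median and 7.60 at the highest. It was 6.93, 6.70, 6.78 and 6.49 in Itgb1 knockout, 6.21, 6.17, 6.45 and 5.96 in Itgb3 knockout, and 6.19, 6.38, 6.89, 6.93 and 6.34 in control tumours. All 6 labelled double knockout tumours were above all 4 Itgb3 knockout tumours, which held for no other marker and for 5.88% of all genes, whereas 4 of the 6 were above all control tumours. The difference of labelled double knockout from Itgb3 knockout tumours was 0.98 ± 0.19 (SE), a 1.97-fold higher level, with adjusted p = 0.0163 by limma with Benjamini-Hochberg adjustment. Without Itgb3 knockout tumour 1 or 4 the adjusted p was 0.0557 or 0.0567. Against control the difference was 0.63 ± 0.18, with a limma adjusted p = 0.105.

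Csf1r encodes the receptor for Csf1 and Il34, on which macrophages depend. Its log2 level was 7.62, 8.43 and 8.96 at the lowest, median and highest of the labelled double knockout tumours. The Itgb1 knockout tumours were at 7.82, 8.11, 8.03 and 7.86, the Itgb3 knockout tumours at 7.08, 7.33, 7.75 and 7.17, and the control tumours at 7.28, 7.81, 8.42, 7.85 and 7.56. All labelled double knockout tumours except tumour 6 lay above all Itgb3 knockout tumours, and control tumour 3, at 8.42, was above 3 of the 6. Csf1r rose by 0.98 ± 0.24 in labelled double knockout against Itgb3 knockout tumours (limma, Benjamini-Hochberg adjusted p = 0.0341), and differed by 0.53 ± 0.22 from control (adjusted p = 0.242). Cx3cr1, the fractalkine receptor, differed by 0.43 between labelled double knockout and Itgb3 knockout tumours, without passing the test. Mertk, a receptor for the uptake of dying cells, differed by 0.13, and Cd86, a costimulatory ligand for T cells, by 0.24.

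**Figure D3:**
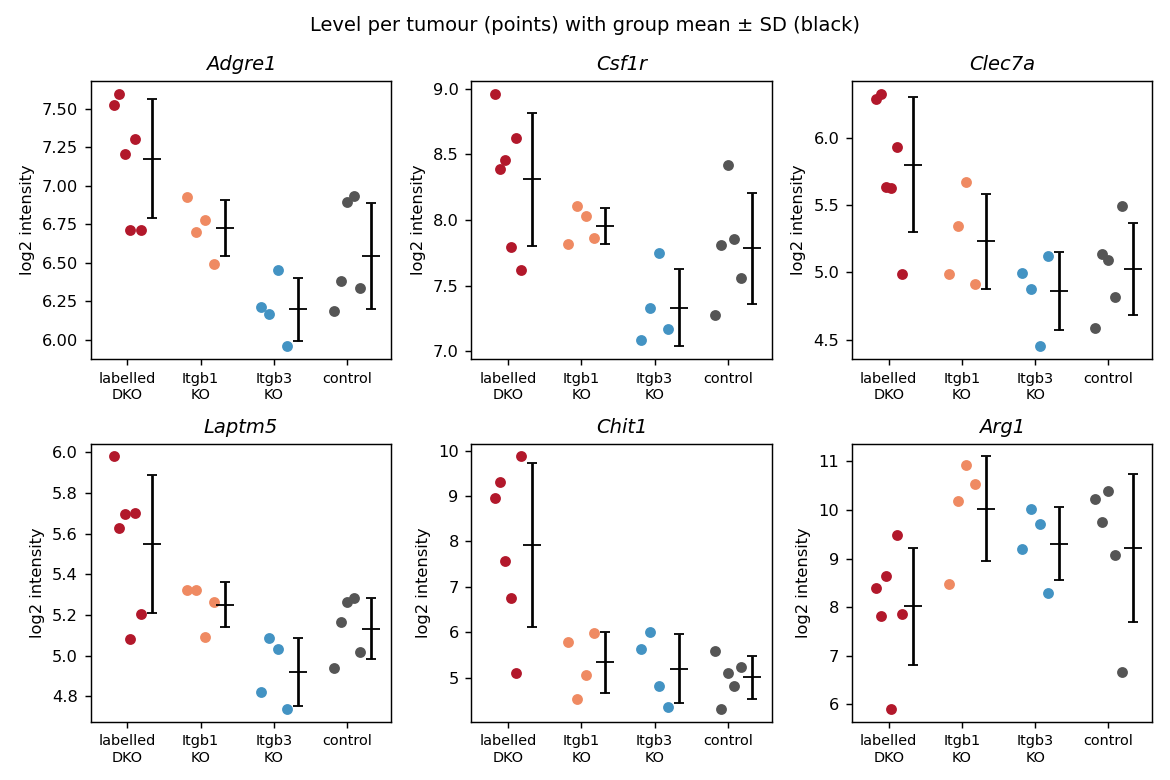
Log2 intensity of 6 markers in each tumour (points) with group mean ± SD (black; n = 6, 4, 4 and 5), groups ordered as labelled double knockout, Itgb1 knockout, Itgb3 knockout and control. Adgre1 is the marker with no overlap between labelled double knockout and Itgb3 knockout tumours, where 5.88% of all genes were likewise higher without overlap. Chit1 in labelled double knockout tumours spreads between 5.09 and 9.88.

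The Fc receptors and their signalling adaptors had 0 of 5 members called in any comparison. Tyrobp, also known as DAP12, is the adaptor through which Trem2 and other myeloid receptors signal. Its log2 level was 6.42, 7.18 and 7.49 at the lowest, median and highest in labelled double knockout tumours, against 6.91, 6.59, 6.91 and 6.74 in Itgb1 knockout, 6.49, 6.66, 6.57 and 6.31 in Itgb3 knockout, and 6.25, 6.65, 6.81, 6.83 and 6.48 in control tumours. Labelled double knockout tumours 1, 2, 3 and 5 exceeded all tumours of Itgb3 knockout and of control, and tumours 4 and 6 did not. The difference was 0.43 ± 0.18 from control (limma, adjusted p = 0.235) and 0.52 ± 0.19 from Itgb3 knockout (adjusted p = 0.125). Trem2, a receptor for lipids and lipoproteins on macrophages, was at 6.06, 7.26 and 7.76 (lowest, median, highest) in labelled double knockout, 7.22, 6.54, 6.40 and 6.63 in Itgb1 knockout, 6.51, 6.49, 6.11 and 6.62 in Itgb3 knockout, and 6.26, 6.23, 7.07, 6.66 and 6.79 in control tumours. Labelled double knockout tumour 4 was the lowest of all 19, below each Itgb3 knockout tumour, while the other 5 were above all of those. Fcer1g, the signalling chain of Fc receptors, differed by 0.64 between labelled double knockout and Itgb3 knockout tumours, and the Fc receptors Fcgr3 and Fcgr1 by 0.34 and 0.06, none passing the test.

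The 3 chains of complement C1q, which binds dying cells and immune complexes and is made mainly by macrophages, differed by like amounts and were not called. C1qa was at 8.39, 9.05 and 9.34 (lowest, median, highest) in labelled double knockout, 8.82, 8.74, 8.33 and 8.66 in Itgb1 knockout, 8.16, 8.55, 8.64 and 8.10 in Itgb3 knockout, and 7.85, 8.74, 8.99, 8.81 and 8.73 in control tumours. The control value of 7.85, in tumour 1, stood apart from the other 4. C1qc, whose upstream sequence is given above, was at 6.80, 7.46 and 7.82 in labelled double knockout, 7.50, 7.06, 6.84 and 7.10 in Itgb1 knockout, 6.69, 6.80, 7.16 and 6.43 in Itgb3 knockout, and 6.44, 7.16, 7.26, 7.31 and 7.16 in control tumours. In labelled double knockout tumours 4 of 6 C1qc values were above all Itgb3 knockout values, and control tumour 1 was again low. Against control, C1qa, C1qb and C1qc differed by 0.32, 0.21 and 0.33, and against Itgb3 knockout by 0.58, 0.48 and 0.63, with limma adjusted p between 0.102 and 0.618. Without control tumour 1, the C1qa difference from control was 0.13 and that of C1qc 0.18.

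Scavenger and lectin receptors behaved less alike than the complement chains. Against Itgb3 knockout all 5 were above 0, with differences between 0.09 and 0.94. Clec7a encodes Dectin-1, a receptor for fungal glucans. It was at 4.99, 5.78 and 6.33 (lowest, median, highest) in labelled double knockout, 4.99, 5.35, 5.67 and 4.91 in Itgb1 knockout, 4.999, 4.88, 4.45 and 5.12 in Itgb3 knockout, and 4.59, 5.14, 5.09, 4.82 and 5.49 in control tumours. Except for tumour 6, the labelled double knockout tumours were above all Itgb3 knockout and all control tumours. Clec7a rose by 0.94 ± 0.24 against Itgb3 knockout (limma, Benjamini-Hochberg adjusted p = 0.0412) and differed by 0.78 ± 0.22 from control (adjusted p = 0.108; called without labelled double knockout tumour 6). Cd163, the haemoglobin scavenger receptor, lay near the intensity filter, at 4.34, 4.79 and 5.04 in labelled double knockout, 5.11, 4.34, 4.67 and 5.08 in Itgb1 knockout, 4.48, 4.29, 5.06 and 4.74 in Itgb3 knockout, and 4.73, 4.49, 4.44, 5.04 and 4.59 in control tumours. All 4 groups overlapped for Cd163, and the difference of 0.11 between labelled double knockout and Itgb3 knockout turned to -0.00156 with centred arrays. Mrc1, the mannose receptor, varied widely within groups, with 5.41 to 7.80 among labelled double knockout tumours and 4.81 to 7.59 among Itgb3 knockout tumours. Msr1 and Siglec1, a scavenger receptor and a sialic acid binding lectin, differed by 0.10 and -0.13 between labelled double knockout and control tumours. Between labelled double knockout and Itgb3 knockout tumours, Mrc1, Msr1 and Siglec1 differed by 0.63, 0.55 and 0.09, and were not called.

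Proteins of the lysosome, lipid transport and pore formation included 1 called gene. Laptm5, a lysosomal membrane protein of blood cells, was at 5.08, 5.66 and 5.98 (lowest, median, highest) in labelled double knockout, 5.33, 5.32, 5.09 and 5.26 in Itgb1 knockout, 4.82, 5.09, 5.03 and 4.74 in Itgb3 knockout, and 4.94, 5.16, 5.26, 5.28 and 5.02 in control tumours. Labelled double knockout tumour 4 was at the level of the highest Itgb3 knockout tumour and the other 5 were above it. The rise against Itgb3 knockout was 0.63 ± 0.15 (limma, Benjamini-Hochberg adjusted p = 0.0313), and the difference from control 0.42 ± 0.14 (adjusted p = 0.148). Lgmn, the lysosomal protease legumain, was at 8.94, 9.41 and 9.74 in labelled double knockout, 9.02, 9.21, 8.82 and 8.98 in Itgb1 knockout, 8.81, 8.90, 8.95 and 8.75 in Itgb3 knockout, and 8.78, 8.85, 9.05, 9.50 and 9.11 in control tumours. All labelled double knockout tumours but tumour 4 exceeded all tumours of both single knockouts, and the difference from Itgb3 knockout of 0.53 ± 0.15 missed the threshold (limma adjusted p = 0.0558).

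Cd68, a lysosomal glycoprotein often stained to count macrophages, showed no such pattern. It was at 8.59, 9.93 and 10.30 (lowest, median, highest) in labelled double knockout, 10.30, 9.68, 9.37 and 9.20 in Itgb1 knockout, 10.10, 9.39, 9.57 and 9.58 in Itgb3 knockout, and 10.06, 9.18, 9.49, 10.33 and 9.95 in control tumours. The groups overlapped, and labelled double knockout tumour 4 was the lowest of all. The difference of labelled double knockout from control was 0.02 ± 0.28 (limma adjusted p = 0.986), with a sign that changed to -0.05 with centred arrays. Of the other members of this group, Lyz2, the lysozyme of myeloid cells, and Apoe, a lipid carrier, differed by 0.61 and 0.40 between labelled double knockout and control tumours. Mpeg1, a pore-forming protein of phagosomes, and Ctss, the protease cathepsin S, differed by 0.17 and 0.10, and none of these 4 passed the test.

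Of the membrane and oxidase genes, 0 of 4 were called. Ms4a7, a membrane protein of macrophages, was at 7.33, 8.48 and 8.96 (lowest, median, highest) in labelled double knockout, 8.36, 8.31, 7.78 and 7.88 in Itgb1 knockout, 7.68, 7.89, 7.55 and 7.83 in Itgb3 knockout, and 7.31, 7.70, 8.003, 8.30 and 7.98 in control tumours. Labelled double knockout tumours 1, 2, 3 and 5 were above all Itgb3 knockout and control tumours. Aif1, which encodes the actin-binding protein Iba1, was at 5.15, 5.98 and 6.36 in labelled double knockout, 5.80, 5.85, 5.99 and 5.60 in Itgb1 knockout, 5.08, 5.50, 5.52 and 5.44 in Itgb3 knockout, and 4.90, 5.50, 5.65, 5.65 and 5.58 in control tumours. For Aif1 the Itgb1 knockout tumours lay within the range of the labelled double knockout tumours, and all 4 of them were above all Itgb3 knockout tumours. The difference of labelled double knockout from control was 0.45 for both Ms4a7 and Aif1 (limma adjusted p = 0.352 and 0.240). Ms4a6c, of the same membrane family, and Cybb, the catalytic subunit of the phagocyte oxidase, differed by 0.29 and 0.25 from control.

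Both transcription factors followed the majority. Spi1, the gene of PU.1, was at 6.17, 6.78 and 6.97 (lowest, median, highest) in labelled double knockout, 6.38, 6.54, 5.95 and 6.47 in Itgb1 knockout, 5.86, 6.27, 6.51 and 5.85 in Itgb3 knockout, and 5.87, 6.44, 6.38, 6.40 and 6.26 in control tumours. Maf, a factor of mature macrophages, was at 5.0004, 5.88 and 6.21 in labelled double knockout, 5.70, 5.63, 5.79 and 5.53 in Itgb1 knockout, 4.83, 5.09, 5.66 and 5.14 in Itgb3 knockout, and 5.51, 5.51, 5.53, 5.65 and 5.11 in control tumours. Labelled double knockout tumours 1, 2, 3 and 5 were above all Itgb3 knockout and control tumours for both genes, and tumours 4 and 6 were not. Spi1 differed by 0.52 ± 0.19 and Maf by 0.59 ± 0.19 between labelled double knockout and Itgb3 knockout tumours (limma adjusted p = 0.118 and 0.0947). Against control, Spi1 differed by 0.38 and Maf by 0.30.

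The 3 activation genes differed from the rest and from each other. Chit1, the chitinase chitotriosidase, had the largest difference of all 34 markers and the widest spread. It was at 8.95, 9.31, 7.56, 6.74, 5.09 and 9.88 in labelled double knockout tumours 1 to 6, against 5.78, 4.53, 5.04 and 5.98 in Itgb1 knockout, 5.62, 6.01, 4.81 and 4.35 in Itgb3 knockout, and 5.58, 4.30, 5.10, 4.81 and 5.23 in control tumours. Of the 6 labelled double knockout tumours, 5 were above all 13 tumours of the other groups, among them tumours 4 and 6, in which the other markers were mostly low, while tumour 5 was within the range of the others. The rise was 2.72 ± 0.68 against Itgb3 knockout, or 6.61-fold (limma, Benjamini-Hochberg adjusted p = 0.0375). Against control the difference was 2.92 ± 0.63 with a limma adjusted p = 0.0504, which passed the threshold without labelled double knockout tumour 4 or 5. From Itgb1 knockout it differed by 2.59 ± 0.68 (limma adjusted p = 0.142).

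Arg1, the arginase that competes with nitric oxide synthase for arginine, was the 1 marker that was lower in labelled double knockout than in Itgb3 knockout tumours on average, without passing the test. Its values were 8.40, 7.82, 8.64, 5.90, 9.49 and 7.85 in labelled double knockout tumours 1 to 6, 8.48, 10.18, 10.92 and 10.53 in Itgb1 knockout, 9.21, 10.02, 9.71 and 8.30 in Itgb3 knockout, and 10.23, 9.76, 10.39, 9.07 and 6.67 in control tumours. Tumour 5, with the lowest Chit1 of the labelled double knockout group, had its highest Arg1. The differences of labelled double knockout were -1.20 ± 0.65 from control, -1.29 ± 0.70 from Itgb3 knockout and -2.01 ± 0.70 from Itgb1 knockout (limma adjusted p = 0.358, 0.293 and 0.247), so Arg1 was not called. Without control tumour 5 the difference from control was -1.84, and without labelled double knockout tumour 4 it was -0.78. Gpnmb, a glycoprotein of lipid-laden macrophages, spanned 4.35 to 7.87 in labelled double knockout and 4.31 to 7.28 in control tumours, and differed by 0.54 with a limma adjusted p = 0.694.

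Csf1r served as the measure of how far the markers varied together, by Pearson correlation over the 19 tumours. The 33 other markers had a median r of 0.70, between -0.05 and 0.92, and 25 of them were above 0.5, where 8.22% of 14230 genes were. With group means subtracted the median r was 0.63 and 23 of 33 were above 0.5, against 5.52% of all genes. This r pools the deviations of all 4 groups. Csf1r varied most in labelled double knockout tumours (SD 0.51) and least in Itgb1 knockout tumours (SD 0.14). The pooled r therefore does not show that markers varied with Csf1r in each group. Without the tumours farthest from the Csf1r median, labelled double knockout 1 and 5, 22 of 33 were above 0.5, against 5.78%. Laptm5 was the closest marker, with r = 0.92 and Spearman's rho = 0.91, r = 0.86 without the 2 tumours and 0.85 with group means subtracted. Adgre1 had r = 0.90 and rho = 0.87, and C1qa, Tyrobp, Spi1 and Aif1 had r of 0.86, 0.86, 0.85 and 0.84. For Laptm5 and Adgre1 the permutation p of r and of rho was 1e-05, the smallest that 100000 permutations can give, and the Benjamini-Hochberg adjusted p over 14230 genes was 0.00459 for r and 0.00949 for rho. In all 15 of 33 markers passed an adjusted p of 0.05 for r, beside 1.06% of all genes with a positive r. The permutations exchanged Csf1r values over all 19 tumours without regard to group, so these p-values include differences between group means. No p was computed for r with group means subtracted.

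The markers least like Csf1r were Siglec1 with r = 0.39, Chit1 and Mrc1 with r = 0.34, Msr1 with 0.32, Cd68 with 0.18, Gpnmb with 0.06, Arg1 with 0.03 and Cd163 with -0.05. For Chit1, r was -0.24 with group means subtracted, and for Arg1 it was 0.48. Genes were ranked by r with predicted, clone-named and small RNA genes left out. The 10 genes most like Csf1r then held 2 markers, Laptm5 and Adgre1, and 8 others: Axl, P2ry6, Adap2, Inpp5d, Pld4, Cd33, Apobec1 and Abca9, with r between 0.87 and 0.92. Axl, a receptor tyrosine kinase of the same family as Mertk, led with r = 0.92, rho = 0.91 and, without the 2 tumours, r = 0.89 (permutation p = 1e-05 and adjusted p = 0.00459 for r). At the other end of this ranking were Nop14 with r = -0.78, Pdk1 with r = -0.81 and Olfr8 with r = -0.82.

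**Figure D4:**
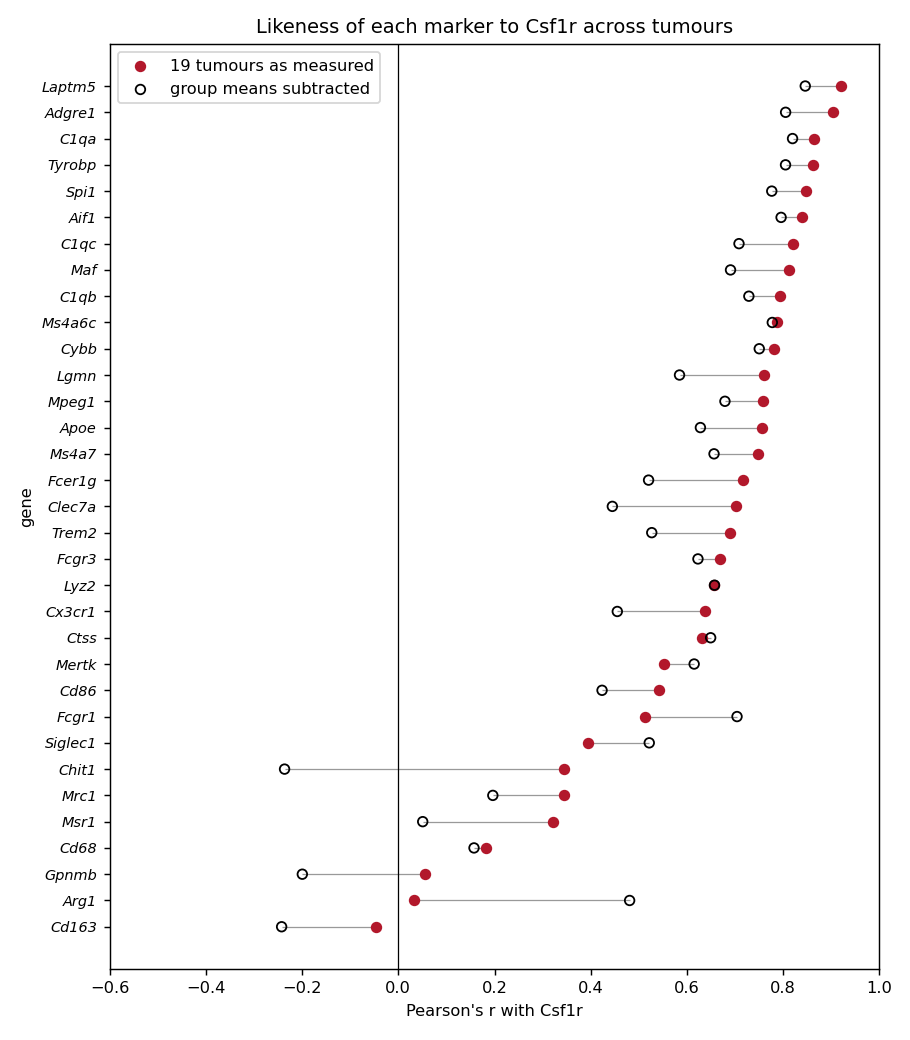
Pearson's r of each of 33 markers with Csf1r over 19 tumours, as measured (filled) and with group means subtracted (open). Most markers lie above 0.5 on both measures, and Siglec1, Chit1, Mrc1, Msr1, Cd68, Gpnmb, Arg1 and Cd163 lie below 0.5 as measured.

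Genes of macrophage growth and recruitment were listed separately. Of 19 genes, 17 were measured, and 2 rose in labelled double knockout against Itgb3 knockout tumours, where 2.38% of all genes were called as higher: Il34, the second ligand of the Csf1 receptor, by 1.45 ± 0.34 (limma adjusted p = 0.0313), and Ccr1, a chemokine receptor of monocytes, by 0.82 ± 0.20 (adjusted p = 0.0352). The median difference of the 17 was 0.15, with 12 above 0. Against control 0 of the 17 were called, with 11 above 0 and a median of 0.16. Of 10 measured monocyte genes, Cd14, the coreceptor for bacterial lipopolysaccharide, rose in labelled double knockout tumours by 1.59 against control (limma adjusted p = 0.00514) and by 1.19 against Itgb3 knockout (adjusted p = 0.0182), the only one of the 10 in each case, beside 0.295% and 2.38% of all genes called as higher in these comparisons. Among 9 measured alternative activation genes, Stab1, a scavenger receptor also made by endothelium, rose by 0.70 against control (limma adjusted p = 0.0499) and by 1.01 against Itgb3 knockout (adjusted p = 0.00626), and the other 8 were not called, beside the same shares of all genes. Of 17 lysosome and lipid handling genes and 10 inflammatory activation genes, 0 were called in any of the 6 comparisons, while the smallest p-values against control were those of Hexa, a lysosomal enzyme, at a difference of 0.66 (limma adjusted p = 0.131), Lamp2, a lysosomal membrane protein, at 0.23, Ptgs2, the inducible cyclooxygenase, at 0.82 (adjusted p = 0.103), and Nos2, the inducible nitric oxide synthase, at -0.46. Ptgs2 averaged 4.21 in control and Nos2 4.32 in labelled double knockout tumours, both under the intensity filter of 4.38. Against control the lysosome list had a median of 0.12, with 10 of 17 above 0, and the inflammatory list 0.08, with 5 of 10 above 0. The monocyte and alternative activation lists had medians of 0.21 and 0.43 there, with 9 of 10 and 6 of 9 above 0. How far the calls of Il34, Ccr1, Cd14 and Stab1 depend on single tumours or on centring was not tested.

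Markers of fibroblasts and endothelium were not called in any of the 6 comparisons with limma. Of 8 fibroblast markers, 8 were above 0 in labelled double knockout minus Itgb3 knockout, with a median of 1.01, and 7 were above 0 against control, with a median of 0.49, while 0 were called. Col1a2, a collagen chain, and Fap, a protease of activated fibroblasts, differed by 1.27 and 0.73 from Itgb3 knockout tumours (limma adjusted p = 0.0621 and 0.232). The summed level of the list, as its mean log2 intensity, ran between 5.89 and 7.92 in labelled double knockout, 6.88 and 7.51 in Itgb1 knockout, 4.87 and 7.55 in Itgb3 knockout, and 6.43 and 7.49 in control tumours. Itgb3 knockout tumour 2 held the lowest fibroblast level, and without it the macrophage markers' median difference from Itgb3 knockout was 0.55. Itgb3 knockout tumours 1, 3 and 4 still differed in fibroblast level, with mean deviations of -0.58, 0.65 and -0.65 from the gene means. Of 7 endothelial markers, 7 were above 0 in both comparisons, with medians of 0.35 against Itgb3 knockout and 0.28 against control and 0 called, at levels of 6.25 to 7.07 in labelled double knockout, 6.48 to 6.76 in Itgb1 knockout, 6.25 to 6.42 in Itgb3 knockout and 6.10 to 6.78 in control tumours. Tie1 and Tek, endothelial receptor kinases, differed by 0.44 and 0.70 from control. The part of fibroblasts and endothelium in the macrophage result was not tested.

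Genes of other leukocytes were measured in part. Of 10 measured dendritic cell and MHC class II genes, Itgax and Irf8 rose against Itgb3 knockout, beside 2.38% of all genes called as higher there. Both are also expressed by macrophages, and they rose by 1.04 and 0.82 (limma adjusted p = 0.0493 and 0.0263). The 10 genes were split, with a median difference of 0.18 and 6 above 0 against Itgb3 knockout. Against control the median was 0.25, with 7 above 0. The list level was 5.69 to 6.40 in labelled double knockout and 5.81 to 5.91 in Itgb3 knockout tumours. Of 14 T and NK cell genes, 7 were measured, with 0 called, medians of 0.40 against Itgb3 knockout and 0.30 against control, and differences from control of 0.68 for Cd3e and 0.48 for Cd8b1. Cd8b1 averaged 4.25 in control tumours, under the intensity filter. Only 4 of 11 neutrophil genes passed the filter, and S100a8, S100a9 and Ly6g, which define that cell, did not, while Ltf and Csf3r differed by 1.65 and 0.22 from control without being called (limma adjusted p = 0.121 and 0.352). Of 7 B and plasma cell genes 2 passed, and of 6 mast cell genes 3 did, with 0 called. Jchain and Mzb1 differed by 0.86 and 0.01 from control. Jchain averaged 4.22 in labelled double knockout and 3.36 in control tumours, both under the filter of 4.38. Kit and Cpa3 differed by -0.25 and 0.15 from control. Kit averaged 10.57 in labelled double knockout and 10.81 in control tumours, and Cpa3 4.67 and 4.51, while Mcpt4, Cma1 and Fcer1a were under the filter. Which cells made the Kit and Ltf RNA was not tested. The 9 epithelial markers had a median difference of 0.05 against Itgb3 knockout and -0.02 against control, at levels of 9.56 to 9.96 in labelled double knockout, 9.47 to 9.75 in Itgb1 knockout, 9.51 to 9.67 in Itgb3 knockout and 9.61 to 9.80 in control tumours. Krt8, a luminal keratin, and Epcam differed by 0.54 and -0.05 from Itgb3 knockout tumours. Adipocyte genes, 3 of 6 measured with Adipoq under the filter, had a median of 0.22 against Itgb3 knockout, with 0.22 for Cidec and -0.12 for Plin1, and the part of each of these lists in the macrophage result was not tested.

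**Figure D5:**
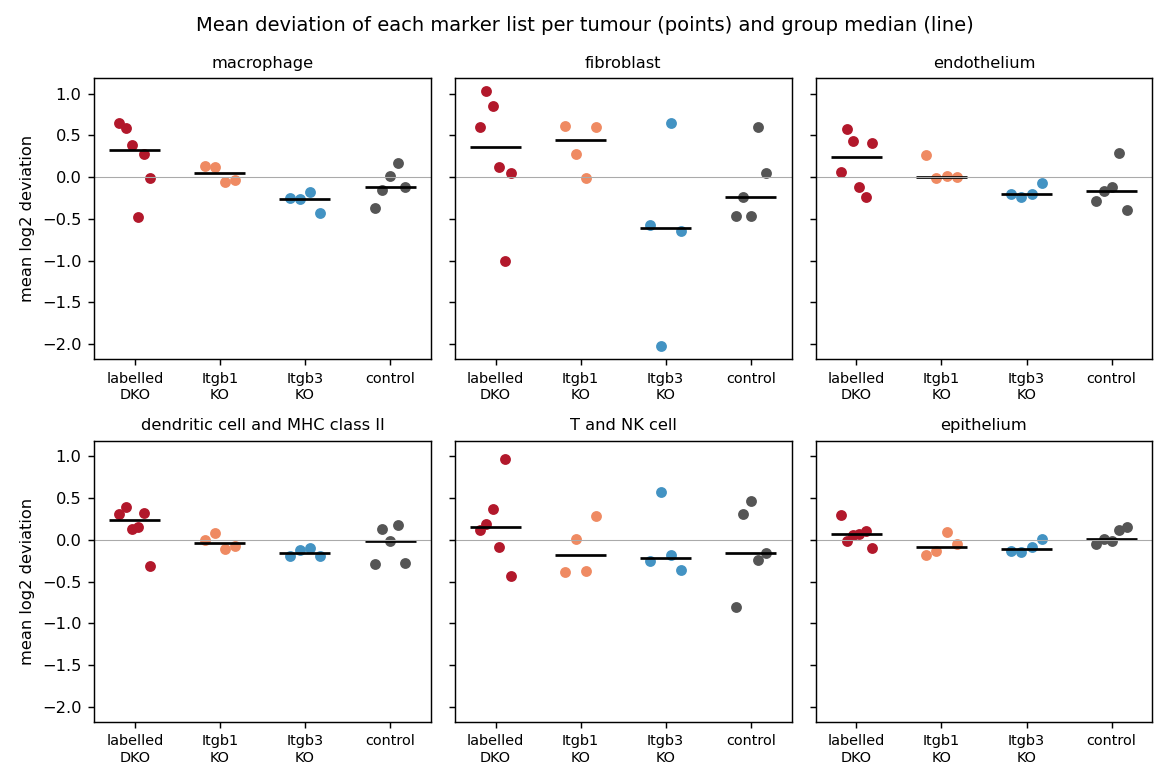
Mean deviation of each marker list from the gene means, per tumour (points) with the group median (line), for macrophage, fibroblast, endothelial, dendritic cell and MHC class II, T and NK cell, and epithelial genes. Fibroblast genes spread widely among labelled double knockout and Itgb3 knockout tumours, and epithelial genes lie between -0.19 and 0.30 in all 4 groups.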

How the data were processed

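Total RNA of 19 tumours was labelled and hybridised to Affymetrix arrays, 1 array a tumour, per the labels. The authors deposited log2 intensities per probe set, made with Affymetrix Expression Console per the submitters' processing notes. How background was corrected and probes were summarized was not given in the sources used here. Values were used as deposited, without further scaling. Of 41345 probe sets, 23521 named 1 gene symbol, and the highest-mean probe set per gene was kept where it exceeded 4.38, the median of all deposited values, on at least 4 arrays. This left 14231 genes, which were fitted in R 4.3.3 with limma 3.58.1 over all 4 groups, with no covariate, for 6 pairs of groups, with Benjamini-Hochberg adjustment over all genes. Intervals are 95%, with a precision set by how many arrays each group holds. Correlations and figures used Python 3.11.15, numpy 2.4.6 and matplotlib 3.10.9, with 100000 permutations. In simulated data for labelled double knockout against control with 14231 genes, 90% of 100 genes changed by 1 on the log2 scale and 98% of 100 changed by 2 were recovered, with 11 false calls. The simulated noise was independent between genes, with the same spread in all groups for each gene. The Benjamini-Hochberg adjustment is less strict when more genes change, and the tumours themselves gave 55 called genes in this comparison. Chit1, at a difference of 2.92, was not called there, so the rates may be too high for these tumours. The markers differed from control by a median of 0.31, so these rates do not say how often such differences would be called.

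The labels give no replicate numbers, so tumours are numbered in accession order within a group. The 34 markers, the other gene lists and the tests were chosen with earlier results of these data known. Values of the tumours (in the labelled double knockout group the lowest, median and highest, except for Chit1 and Arg1) are given for each marker called in any comparison, for Adgre1, Csf1r, Cd68 and Arg1, and for the 2 markers of each role group with the smallest p against control, the other markers being given by differences. Beside the markers, the 10 genes most like and the 3 least like Csf1r are named, with predicted, clone-named and small RNA genes left out. From each list the called genes or the 2 with the smallest p are named. The lists cover growth and recruitment, monocyte, lysosome and lipid, inflammatory and alternative activation, neutrophil, dendritic cell, T and NK cell, B and plasma cell, mast cell, epithelial, fibroblast, endothelial and adipocyte genes. The alternatives were other intensity filters, a fit of only the groups compared, centred arrays, array weights, a trended and robust variance, values raised to the filter, the mean of probe sets, and each tumour left out in turn.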

Additional observations from a re-analysis of the deposited data

Results flagged for a closer look

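In 5 of the 68 groups of 4 to 6 tumours examined, 1 tumour stood apart from the rest by Dixon's test, where chance gives about 1 in 20. Control tumour 1 was the lowest of its group for C1qa at 7.85, for C1qc at 6.44 and for Aif1 at 4.90 on the log2 scale. Labelled double knockout tumour 4 was lowest for Cd68 at 8.59, and control tumour 5 was lowest for Maf at 5.11. Control tumour 1 was also the tumour with the lowest median over the 34 markers, and labelled double knockout tumour 4 held 5 markers above their mean.

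Between labelled double knockout and Itgb3 knockout tumours, 5 markers differed by the test of that difference with limma. These were 14.7% of the markers, beside 2.87% of all genes called in either direction. The differences were 0.98 for Adgre1, 0.98 for Csf1r, 0.63 for Laptm5, 0.94 for Clec7a and 2.72 for Chit1. All labelled double knockout tumours were above all Itgb3 knockout tumours for Adgre1, and 5 of 6 were for each of Csf1r, Laptm5, Clec7a and Chit1. Full separation of this kind held for 2.94% of the markers, below the 5.88% of all genes.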

How the results depend on the processing

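Between labelled double knockout and control tumours 0 markers were called, and 1, Chit1, with the 60th-percentile filter. Against Itgb3 knockout, 5 markers were called, 1 in a fit of only both groups, 1 with centred arrays and 17 with array weights (1568 genes called, against 408). Without both control tumour 1 and labelled double knockout tumour 1, a setting chosen after seeing the data, 1 was called. With each tumour left out in turn the count ran between 0 and 11 against Itgb3 knockout, 0 and 1 against control (Chit1 without labelled double knockout tumour 4 or 5, Clec7a without tumour 6) and 0 and 1 against Itgb1 knockout (Chit1 without tumour 5). The number of all genes called changed as well: against control it was 14 without labelled double knockout tumour 2 and 125 without tumour 5. Adgre1 lost its call without 2 of 19 tumours, Csf1r and Laptm5 without 7 and Clec7a and Chit1 without 8. Centring lowered the difference between labelled double knockout and Itgb3 knockout by 0.11 at the median of all genes, and 40.4% of its 272 calls were higher, against 82.8%. With control, 55 genes were called, 39 with centring (46.2% higher, against 76.4%) and 2 in a fit of only both groups.

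The difference of Cd68 between labelled double knockout and control was -0.051 with centred arrays, -0.014 without control tumour 1 and labelled double knockout tumour 1, and between -0.14 and 0.26 with each tumour left out. The difference of Cd163 between labelled double knockout and Itgb3 knockout was -0.00156 with centred arrays and between -0.012 and 0.25 with each tumour left out. The causes were not tested. No paired analysis was possible because the labels give no replicate numbers. Precision is limited by 4 to 6 tumours a group, and 4 markers (Cd163, Chit1, Gpnmb and Siglec1) lay near the intensity filter on some arrays.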
